A study of Mus musculus with 4 samples.

Results

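The effect of TGFB1 was measured in mouse lung fibroblasts in which miR-9 was blocked, by comparing 1 library labelled TGFB1+miR-9-LOF with 1 library labelled miR-9-LOF (LOF, loss of function). These are 2 of the 4 libraries of the series, and they were taken by their labels. All libraries are H3K4me3 HiChIP-seq of MLg cells, an established line of mouse lung fibroblasts, and each condition is 1 library. In both libraries compared here the cells carried an antagomiR against miR-9-5p at 60 nM and were harvested 24 h after transfection. In TGFB1+miR-9-LOF, recombinant human TGFB1 was added at 5 ng/ml for the last 4 h, from 20 h after transfection, while miR-9-LOF received none. Of the 2 remaining libraries, the labels give the transfection of Control as WT and name for TGFB1 the treatment alone, while the study describes HiChIP cells without miR-9-LOF as having received a control antagomiR. TGFB1 received the same dose of TGFB1 for the same time. Control and TGFB1 share no library with the comparison reported here and stand beside it as the comparison of TGFB1 without the miR-9 antagomiR. With no replicate, no difference below has a check between cultures, and every interval is a 95% interval that covers counting error only.

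HiChIP ligates DNA ends that lie close in the nucleus and then enriches, with an antibody, for ligated fragments that carry a chromatin mark. Each read pair therefore holds 2 ends, and the pair records a contact. H3K4me3, trimethylated lysine 4 of histone H3, marks the promoters of transcribed and poised genes, so ends collect at start sites. TGFB1 binds a receptor pair on the cell surface, whose kinases phosphorylate SMAD2 and SMAD3. These enter the nucleus with SMAD4 and activate genes of the matrix, the cytoskeleton and their own inhibitors, of which Smad7 is one. In fibroblasts this pathway drives the myofibroblast state. miR-9 is a microRNA, known for repressing messenger RNAs in the cytosol. The study used the blocked cells to ask whether the promoter contacts that form after TGFB1 need miR-9 in the nucleus. The mature RNA that the antagomiR was made against is shown with its seed, bases 2 to 8, in capitals, as given by RefSeq for 3 genes of build GRCm38.p6 on chromosomes 3, 7 and 13.
mmu-miR-9-5p: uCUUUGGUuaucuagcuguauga

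Depth was close between the libraries compared. TGFB1+miR-9-LOF held 14121095 valid pairs and miR-9-LOF 15568047, and 12058489 and 12617104 of these lay on autosomes and had a mapping quality of 30 or more at each end. The libraries differed in how well their ends mapped, as 90.8% of the pairs of TGFB1+miR-9-LOF but 86.6% of those of miR-9-LOF reached that mapping quality, against 90.4% and 90.8% in Control and TGFB1. The median distance of an end from its MboI site was 55 bp in TGFB1+miR-9-LOF and 75 bp in miR-9-LOF, against 57 bp and 55 bp in Control and TGFB1. The miR-9-LOF library thus stood apart from the other 3 in both measures. In windows of 100 kb without an enriched region, the log2 ratio of TGFB1+miR-9-LOF to miR-9-LOF went from -0.11 in the 20% of windows of lowest GC content to 0.08 in the 20% of highest, where TGFB1 against Control went from -0.02 to 0.02. The labelled cell type was checked at promoters. Of 13 fibroblast markers 7 had an enriched region. Pdgfra, a receptor of fibroblasts, was the highest of them, with 21.8 ends per 1000000 in TGFB1+miR-9-LOF compared with 28.4 in miR-9-LOF. The medians of the 13 were 5.43 and 6.54, and the lowest values 1.66 and 0.95. Of 10 epithelial markers 1 was enriched, namely Foxj1, and the highest values of the 10 were 7.84 and 6.74. Of 7 endothelial and 7 immune markers 0 were enriched, with at most 4.44 ends per 1000000 at any of these 14 promoters in the libraries compared. The levels of the lists thus overlapped.

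With the antagomiR, the library with TGFB1 had a smaller share of its ends at start sites than the one without, and the gap was narrower than that between TGFB1 and Control. In TGFB1+miR-9-LOF 10.2% of ends lay within 2 kb of a coding start site, against 11.01% for miR-9-LOF, a log2 ratio of -0.12 (-0.12 to -0.11). The gap lay at promoters with an enriched region, a run of bins of 1 kb with at least 4 times the ends of their surroundings. Regions were called on Control and TGFB1 only, so independently of the libraries compared. These promoters took 5.70% of ends in TGFB1+miR-9-LOF compared with 6.61% in miR-9-LOF (log2 ratio -0.21). Promoters without such a region took 2.52% and 2.51% (log2 ratio 0.01). In TGFB1 and Control the enriched promoters took 9.18% and 12.4%, a log2 ratio of -0.43, which differed from the ratio in the blocked cells by 0.220 (0.216 to 0.224). The fold enrichment of the regions over an even spread of ends was 8.27 in TGFB1+miR-9-LOF, 9.66 in miR-9-LOF, 14.1 in TGFB1 and 19.5 in Control. Both libraries with the antagomiR were thus below both without it, in the share on which the TGFB1 ratios rest, and the efficiency of the antibody step and a change of the mark cannot be told apart with 1 library per condition. The regions were chosen by the ends of Control and TGFB1, which in part raises the values of these libraries there. Within 2 kb of any coding start site, a set not chosen in this way, lay 13.8% of ends in TGFB1 and 17.2% in Control.

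The average profile around the enriched start sites peaked at the same place in the 4 libraries. The highest 500 bp lay from 0 to 500 bp downstream of the start site in each. There the mean promoter had 4.21 ends per kb per 1000000 ends in TGFB1+miR-9-LOF compared with 4.98 in miR-9-LOF, which was 6.57 and 7.74 times the level 8 to 10 kb away. In TGFB1 and Control it had 7.30 and 10.1, or 10.4 and 13.4 times the distant level. The distant level itself was 0.640 in TGFB1+miR-9-LOF compared with 0.643 in miR-9-LOF. Beside the peak, miR-9-LOF had 2.92 from 500 to 1000 bp after the start site and 2.87 in the 500 bp before it. The order was the reverse in TGFB1+miR-9-LOF (2.34 and 2.52), TGFB1 (4.04 and 4.23) and Control (5.62 and 6.07). The log2 ratio of the libraries compared was -0.32 after the peak and -0.19 before it.

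**Figure D1:**
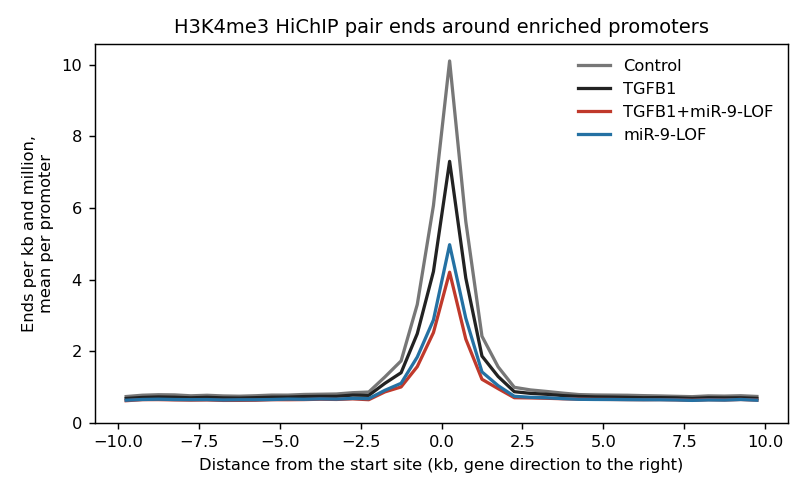
Mean number of pair ends per kb per 1000000 ends (vertical axis) in steps of 500 bp from 10 kb before to 10 kb after the start site (horizontal axis, kb), over the 8975 enriched promoters, with 1 line per library. TGFB1+miR-9-LOF peaks at 4.21, below miR-9-LOF at 4.98, and both lie below TGFB1 at 7.30 and Control at 10.1.

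Promoters were then compared one by one. Of 20722 autosomal coding genes 8975 had a promoter with an enriched region, and 8972 of these had at least 50 ends in the libraries compared. At the median promoter TGFB1+miR-9-LOF had 158 ends and miR-9-LOF 190.5. The median log2 ratio was -0.21, and 83.1% of promoters were below 0, against a median of -0.44 and 98.0% for TGFB1 against Control. All values for single promoters are given relative to these medians. Around the median, the ratios had an SD of 0.22, where counting error alone gave a root mean square of 0.17, so most of the spread between promoters was of the size of counting error. The interval of the ratio lay above 0 at 7.04% of promoters and below 0 at 6.29%. At least 1.5-fold higher were 105 promoters (1.17% of those tested), and at least 1.5-fold lower were 38 (0.424%). Without centring on the median, 20 were higher and 302 lower. An exact binomial test of the ends, which compares these libraries and not the conditions, had a Benjamini-Hochberg adjusted p under 0.05 at 59 promoters on the higher side (0.658%) and 65 on the lower (0.724%). The ratios correlated weakly with those of TGFB1 against Control (Pearson's r = 0.12 over 8972 promoters, which share the depth of their windows and their sequence), and their signs were opposite at 47.6% of promoters.

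Most of the promoters called higher had few ends in Control. At many of them a smaller share of ends reached the mapping quality minimum in miR-9-LOF than in TGFB1+miR-9-LOF. Of the 105, 84 lay among the 20% with the lowest Control level. Of all ends at a promoter, the median share that reached the minimum was 89.9% in TGFB1+miR-9-LOF compared with 78.5% in miR-9-LOF at those 105, against 93.5% and 90.7% at promoters not called. The share was over 10 percentage points higher in TGFB1+miR-9-LOF at 61 of the 105 (58.1%), at 8.13% of those not called and at 0 of the 38 called lower. Among the 4827 promoters where this gap was between 0 and 5 points, 13 were called higher and 12 lower. The kept share is part of the ratio by which promoters were called, so part of the contrast between these groups is built in. With no mapping quality minimum, 58 promoters were called higher and 32 lower, and 44 of the 105 and 23 of the 38 kept their call.

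**Figure D2:**
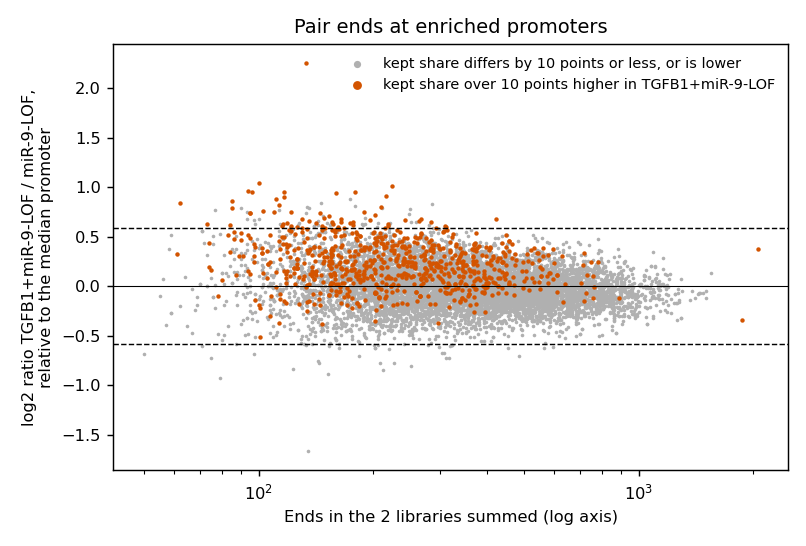
log2 ratio of ends, TGFB1+miR-9-LOF over miR-9-LOF, relative to the median promoter (vertical axis) against the ends in both libraries (horizontal axis, log scale), 1 point for each of 8972 promoters, with dashed lines at 1.5-fold. Orange points are promoters whose share of ends at mapping quality 30 was over 10 points higher in TGFB1+miR-9-LOF. They lie mostly above 0 and make up 61 of the 105 points past the upper line and 0 of the 38 past the lower. That share is part of the ratio, so part of this pattern is built in.

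The lowest ratios with at least 100 ends were found at genes of several unrelated functions. Rfc4, which encodes a subunit of the clamp loader of DNA replication, had 67 ends in TGFB1+miR-9-LOF compared with 146 in miR-9-LOF, against 110 in TGFB1 and 235 in Control. Its ratio was -0.85 (-1.29 to -0.42), with an adjusted p of 0.0125 in the exact binomial test. Tomm5, a component of the mitochondrial import channel, had 81 and 171 ends, against 127 in TGFB1 and 203 in Control, with a ratio of -0.80 (-1.20 to -0.41, exact binomial adjusted p = 0.00835). In both libraries compared these promoters kept 89.1% to 94.4% of their ends at the mapping quality minimum, and without the minimum the ratios were -0.80 for Rfc4 and -0.82 for Tomm5. Cant1, a calcium-activated nucleotidase, was at -0.78 with 68 and 141 ends. Mindy3, a deubiquitinase, was at -0.88 with 47 and 105 ends. Dnajc27, a member of the DnaJ family, was at -0.83 with 39 and 84 ends and did not pass the test (adjusted p = 0.109 in the exact binomial test). The lowest of all was Gm14403, a predicted gene on chromosome 2, at -1.66 with 28 and 107 ends. In TGFB1 against Control these 6 promoters had ratios from -0.16 at Rfc4 to 0.25 at Tomm5.

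The promoter sequences of Rfc4 and Tomm5, and of Timp3, whose contacts are described below, are printed to show the cut sites next to their start sites. Ends were counted within 2 kb of a start site and contacts within 10 kb, and the cut sites in these wider windows were not counted. The chromatin was cut with MboI before ligation, and its sites, which read GATC on both strands, are given in capitals. The sequences run from 250 bases before to 50 after the RefSeq start site on build GRCm38.p6, in the direction of the gene, at chr16:23127681-23127980 on the minus strand for Rfc4, at chr4:45108064-45108363 on the minus strand for Tomm5 and at chr10:86300162-86300461 on the plus strand for Timp3. Each holds 1 GATC, and 46.1% of 15679 promoters of this length matched to coding genes hold at least 1.
Rfc4: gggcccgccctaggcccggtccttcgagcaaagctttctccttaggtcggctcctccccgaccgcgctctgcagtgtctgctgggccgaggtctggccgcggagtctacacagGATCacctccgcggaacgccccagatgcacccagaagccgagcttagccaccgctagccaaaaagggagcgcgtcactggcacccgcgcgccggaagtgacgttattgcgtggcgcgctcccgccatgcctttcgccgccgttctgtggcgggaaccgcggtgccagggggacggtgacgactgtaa
Tomm5: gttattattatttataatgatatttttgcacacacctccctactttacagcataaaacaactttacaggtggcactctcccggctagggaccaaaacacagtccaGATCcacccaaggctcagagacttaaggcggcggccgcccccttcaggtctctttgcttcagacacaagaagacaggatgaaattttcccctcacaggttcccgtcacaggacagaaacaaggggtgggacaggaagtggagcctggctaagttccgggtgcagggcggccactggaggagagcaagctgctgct
Timp3: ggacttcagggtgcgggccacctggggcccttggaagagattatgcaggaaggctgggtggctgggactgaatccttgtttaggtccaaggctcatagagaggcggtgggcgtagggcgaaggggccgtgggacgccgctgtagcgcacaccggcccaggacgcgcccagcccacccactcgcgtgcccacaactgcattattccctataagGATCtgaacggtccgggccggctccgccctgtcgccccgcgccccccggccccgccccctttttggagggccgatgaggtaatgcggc

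At the other end of the range stood loci with poor mapping. Gm10719, whose window overlaps that of Gm10720 near the start of chromosome 9, had the highest ratio, 2.25, with 106 and 27 ends, but it kept 73.6% of its ends at the mapping quality minimum in TGFB1+miR-9-LOF compared with 32.1% in miR-9-LOF, and its ratio was 1.12 without the minimum. Gm21738 on chromosome 14 had 140 and 84 ends and a ratio of 1.01, and without the minimum its direction turned to -0.63, with 272 and 531 ends. Ccno, which encodes cyclin O, was at 0.95 with 72 and 45 ends, and at 0.22 without the minimum. Bub1b, a kinase of the mitotic checkpoint, was at 0.95 with 110 and 69 ends, and at 0.34 without the minimum. Commd2, of the COMM domain family, was at 0.94 with 98 and 62 ends, and at 0.51 without the minimum. Ccno, Bub1b and Commd2 were thus under 1.5-fold without it. TGFB1 against Control gave ratios from 0.05 at Bub1b to 0.60 at Gm10719 for these promoters and Smad2.

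Smad2, the receptor-activated SMAD of the pathway itself, was the remaining promoter among the 6 highest. It had 63 ends in TGFB1+miR-9-LOF, 37 in miR-9-LOF, 53 in TGFB1 and 92 in Control. Its ratio was 1.04 (0.44 to 1.67, exact binomial adjusted p = 0.036), and that of TGFB1 against Control was 0.13 (-0.38 to 0.64). At Smad2 88.7% of ends reached the mapping quality minimum in TGFB1+miR-9-LOF compared with 68.5% in miR-9-LOF, and without it there were 71 and 54 ends, a ratio of 0.73 that was still past 1.5-fold. How far the mapping of the miR-9-LOF reads set this value was not tested.

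The medians of the other genes of the pathway lay near that of all promoters. Of 21 TGFB ligands, receptors and SMADs, 19 had an enriched promoter, and 1 of these, Smad2, was called higher and 0 lower, with a median ratio of 0.01 where the median of all promoters is 0 by construction. The ligand Tgfb2 was at 0.01 with 351 and 423 ends, the type I receptor Acvr1, which shares its window with Upp2, was at 0.26 with 413 and 419 ends, and Smad1, of the bone morphogenetic protein branch, was at 0.15 with 403 and 440 ends. The intervals of 5 of the 19 lay above 0 and those of 0 below it, beside the 7.04% above and 6.29% below over all promoters. Of 22 early target genes of TGFB1, 20 had an enriched promoter, 0 were called in either direction by fold, where 1.17% higher and 0.424% lower over all promoters leave few to expect in a list of this size, and the median ratio was 0.01. Pmepa1, a feedback inhibitor of SMAD signalling, had 427 and 575 ends and a ratio of -0.15 (-0.34 to 0.03). Tgif1, a corepressor of SMADs, had 421 and 543 ends and was at -0.09. Id1, an inhibitor of helix-loop-helix factors, had 368 and 409 ends and was at 0.12. Smad7, the inhibitory SMAD, was chosen from this list after its values were seen. It had 340 ends in TGFB1+miR-9-LOF, 303 in miR-9-LOF, 424 in TGFB1 and 870 in Control, with a ratio of 0.44 (0.21 to 0.67, exact binomial adjusted p = 0.0193) beside -0.11 in TGFB1 against Control. Smad7 was the 1 gene of this list with more ends in TGFB1+miR-9-LOF than in miR-9-LOF by count.

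**Figure D3:**
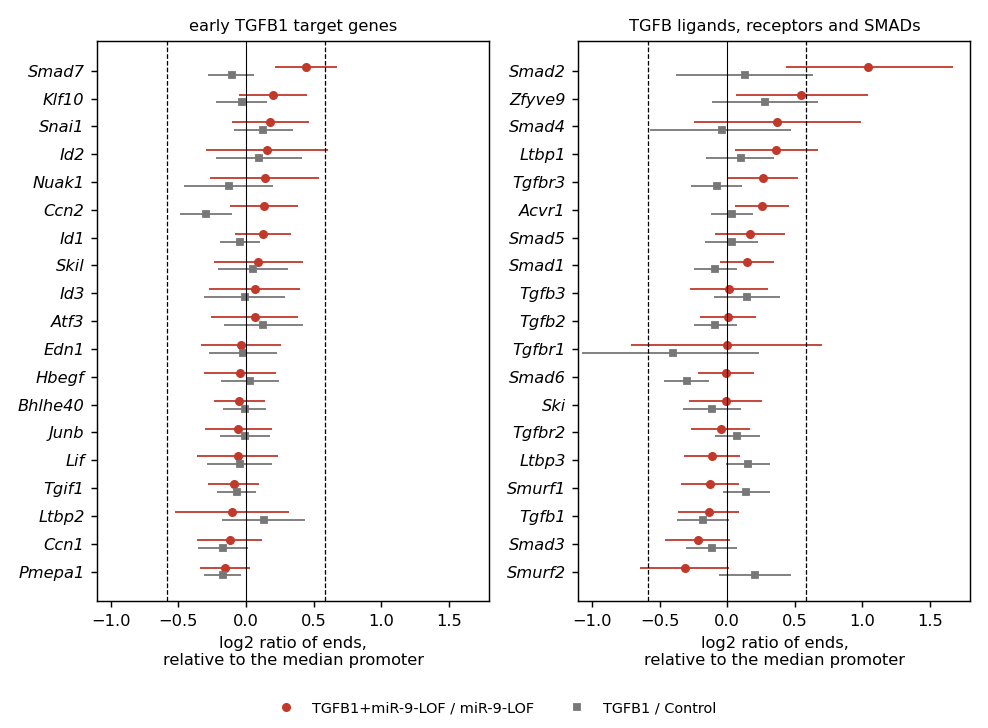
log2 ratio of ends relative to the median promoter (horizontal axis) for the enriched promoters of 19 of the 20 early TGFB1 target genes and of 19 TGFB ligands, receptors and SMADs, with 95% counting intervals as lines. Red circles are TGFB1+miR-9-LOF over miR-9-LOF, grey squares are TGFB1 over Control, and dashed lines mark 1.5-fold. Smad2, at 1.04, is the single red point past the upper line, and 0 red points pass the lower.

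The medians of the lists for matrix, contractile, immediate early, H3K4, miRNA and housekeeping genes lay between -0.08 and 0.05. With 1.17% of all promoters called higher in ends and 0.424% lower, a count of 0 in lists of this size is near the background. Of 23 measured collagens and matrix genes 14 had an enriched promoter, of which 0 were called, with a median ratio of 0.05 in ends. Col5a1, the alpha-1 chain of type V collagen, was at 0.05 with 414 and 483 ends, Loxl1, a crosslinking enzyme, was at -0.04 with 300 and 374, and Col4a2, which shares its window with Col4a1, was at -0.33 with 271 and 412. Of 12 contractile genes 0 were called by ends (median -0.05). Cnn2, a calponin, was at -0.24, Flnc, a filamin, at -0.05 and Tpm1, a tropomyosin, at -0.18. Of 15 immediate early genes 0 were called (median 0.01), and Myc, Ier5 and Fosb, which encode a growth factor-induced transcription factor, an early response regulator and an AP-1 subunit, were at -0.02, 0.08 and -0.15. Of 20 genes of the H3K4 methylation and loop machinery 0 were called (median -0.08), and the intervals of 3 lay above and 3 below 0, with the methyltransferases Kmt2d, Kmt2c and Setd1a at -0.17, -0.0021 and -0.08. Of 9 genes of the miRNA machinery 0 were called (median -0.0023), with Tarbp2, a partner of Dicer whose window overlaps that of Map3k12, at -0.30, Tnrc6b, a partner of Argonaute, at -0.0023 and Drosha, the nuclear microRNA processing enzyme, at 0.15. Of 12 housekeeping genes 0 were called (median 0.00), and the intervals of 2 lay above 0 and those of 4 below it, a larger share than over all promoters, among them that of Actb at -0.30 with 346 and 516 ends. Ywhaz was at -0.22.

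Of the genes that the study named at its loci, among them Prap1 as its negative control, 7 of 9 had an enriched promoter and 0 were called in ends or contacts. Over all promoters 1.17% were called higher and 0.424% lower in ends, and 0.479% more and 0.156% fewer in contacts. A count of 0 among 7 is near that background. Their ratios of ends were 0.00 for Hdac7, a histone deacetylase, -0.05 for Lzts2, -0.18 for Ncl, the nucleolar protein nucleolin, -0.14 for Ep300, a histone acetyltransferase, 0.11 for Hif1an, which hydroxylates the hypoxia factor, and -0.02 for Tnks1bp1, a binding partner of tankyrase. Ptma, which encodes prothymosin alpha, had 125 and 202 ends and a ratio of -0.42 (-0.75 to -0.09), beside -0.42 (-0.73 to -0.13) in TGFB1 against Control. Zdhhc5, a palmitoyltransferase, and Prap1 had no enriched region. Zdhhc5 had 96 and 132 ends and a ratio of -0.18. Prap1 had 59 and 40 ends and a ratio of 0.84 (0.23 to 1.45). Both ratios are relative to the median enriched promoter, a class to which neither gene belongs. Without centring they were -0.39 and 0.63, where all ends at promoters without an enriched region were at 0.0081.

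Classes of promoter were compared by their median ratio. Medians ran from -0.01 to 0.02 over 5 classes of GC content, and from -0.04 in promoters whose region was at least 4 kb wide to 0.01 in those with a region of 1 kb. By Control level the medians ran from 0.07 in the lowest of 5 classes to -0.04 in the highest, and those of TGFB1 against Control from 0.07 to -0.02. Control is the denominator of the latter ratio, so part of that fall is built in and the falls cannot be compared. Over the gap in ends kept at the mapping quality minimum the medians ran from -0.09 where miR-9-LOF kept the same or a larger share to 0.22 where TGFB1+miR-9-LOF kept over 10 points more. The kept shares are part of the ratio itself, so a rise over these classes is built in and cannot be ranked against the other ranges. The G-quadruplex motif, runs of G joined by short loops, was searched on both strands of the RefSeq promoters, because such structures are part of the study's question. The motif was in 22.7% of the 15679 matched promoters. The median ratio was 0.01 at the 1898 tested promoters with the motif and -0.01 at the 4531 without. The medians for TGFB1 against Control were -0.01 with the motif and 0.00 without.

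Contacts of promoters were compared in the same way. A contact was a pair with 1 end within 10 kb of the start site and the other 20 kb to 2 Mb away, and 8970 enriched promoters had at least 50. The median promoter had 159 contacts in TGFB1+miR-9-LOF compared with 176 in miR-9-LOF, and the median log2 ratio was -0.09, against -0.29 for TGFB1 and Control. Relative to the median, 43 promoters had at least 1.5-fold more contacts (0.479%) and 14 at least 1.5-fold fewer (0.156%), against 24 and 42 without centring. The counts depended on the width of the anchor, with 231 and 160 called for ends within 2 kb of the start site. The exact binomial test between the libraries called 5 in each direction (0.0557% each). The spread of the ratios was 0.20 and its counting part 0.17. Of the 43, 18 had a kept share over 10 points higher in TGFB1+miR-9-LOF (41.9%), as had 0 of the 14 and 758 of the 8913 not called (8.50%). Both ends of a contact had to reach the minimum, so part of this contrast is built in as well. With no mapping quality minimum the calls were 9 and 13.

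Actn1, which encodes alpha-actinin of stress fibres and is on the contractile list, had the lowest ratio of contacts among promoters with at least 200. It had 152 contacts in TGFB1+miR-9-LOF, 270 in miR-9-LOF, 236 in TGFB1 and 493 in Control. Its ratio was -0.67 (-0.96 to -0.38, exact binomial adjusted p = 0.00942), beside -0.30 in TGFB1 against Control, and its ends were at -0.28. Both ratios were below the median promoter, and Actn1 was the 1 gene of 12 contractile genes called in contacts, where 0.156% of all promoters were called fewer. The median ratio of contacts of that list was 0.09, with 7 of the 12 above 0 and the highest at 0.43. Next came Acat2, an enzyme of acetyl-CoA metabolism, at -0.63 with 113 and 196 contacts, Zfp180, a zinc finger protein, at -0.62 with 80 and 137, and Eif5b, a translation initiation factor that shares its window with Txndc9, at -0.60 with 157 and 266 (exact binomial adjusted p = 0.0369). Klhl21, an adaptor of a ubiquitin ligase, and Phykpl, a phospholyase, were at -0.58 and -0.53. Acat2, Zfp180, Klhl21 and Phykpl did not pass the exact binomial test (adjusted p of 0.107 to 0.187).

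Timp3, an inhibitor of matrix metalloproteinases, had the highest ratio of contacts by the same rule. It had 193 in TGFB1+miR-9-LOF, 134 in miR-9-LOF, 179 in TGFB1 and 252 in Control. Its ratio was 0.69 (0.36 to 1.02, exact binomial adjusted p = 0.0369), beside 0.27 in TGFB1 against Control. Its ends were at 0.51, it kept 79.5% and 79.7% of them at the mapping quality minimum, and without the minimum they were at 0.58. Eps8, a regulator of actin, was at 0.68 with 145 and 101 contacts. Tex264, a receptor of endoplasmic reticulum turnover, was at 0.68 with 143 and 100, Mfsd9, a putative transporter, at 0.66 with 153 and 108, Src, the tyrosine kinase, at 0.64 with 144 and 103, and Dhx29, a helicase that shares its window with Mtrex, at 0.64 with 130 and 93. At the promoters of Tex264, Mfsd9, Src and Dhx29 a larger share of ends reached the mapping quality minimum in TGFB1+miR-9-LOF than in miR-9-LOF, 72.8% and 53.6% at Tex264, 81.0% and 59.0% at Mfsd9, 92.5% and 78.5% at Src and 80.2% and 68.4% at Dhx29. Their ratios of ends were 0.63, 0.50, 0.49 and 0.32 with the minimum and 0.26, 0.11, 0.31 and 0.15 without it. At Eps8 the kept shares were 47.4% and 43.1%, and the ratio of ends was 0.43 with the minimum and 0.36 without it. The part of the kept shares in the contacts was not tested. None of Eps8 and these 4 passed the exact binomial test (adjusted p of 0.115 to 0.158). The list of TGFB ligands, receptors and SMADs had 0 promoters called in contacts, as had the early target genes, the matrix genes and the immediate early genes, with medians of 0.00, 0.04, 0.05 and 0.02. With 0.479% called more and 0.156% fewer over all promoters, a count of 0 in lists of this size is near the background. Tgfb1, the ligand's own gene, had 206 contacts in TGFB1+miR-9-LOF, 312 in miR-9-LOF, 255 in TGFB1 and 500 in Control, and a ratio of -0.44 (-0.70 to -0.18, exact binomial adjusted p = 0.134) beside -0.21 in TGFB1 against Control. It was chosen from its list after its values were seen. Within that list 10 of 19 ratios of contacts were above 0, and the ratio farthest from 0 was in the other direction, at Smad4, the common partner SMAD, with 72 and 55 contacts and 0.55 (0.02 to 1.08, exact binomial adjusted p = 0.458). The intervals of 3 of the 19 excluded 0.

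The distances of all contacts differed by little. Among pairs on 1 chromosome at least 20 kb apart, 31.7% spanned over 2 Mb in TGFB1+miR-9-LOF compared with 32.3% in miR-9-LOF (log2 ratio -0.02), and 28.9% and 29.5% did in TGFB1 and Control (log2 ratio -0.03). The share from 20 to 100 kb was 23.3% and 22.8% in the blocked cells (log2 ratio 0.03) and 24.6% and 25.004% in the others (log2 ratio -0.02). The exponent of the fall of contacts with distance from 100 kb to 1 Mb was -1.16 and -1.14, a difference of -0.017, where TGFB1 minus Control gave 0.024. The share of pairs between chromosomes was 18.5% in TGFB1+miR-9-LOF compared with 17.5% in miR-9-LOF (log2 ratio 0.08), and 14.5% and 16.4% in TGFB1 and Control (log2 ratio -0.18). Random ligation adds pairs between chromosomes, and its share was not measured apart.

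**Figure D4:**
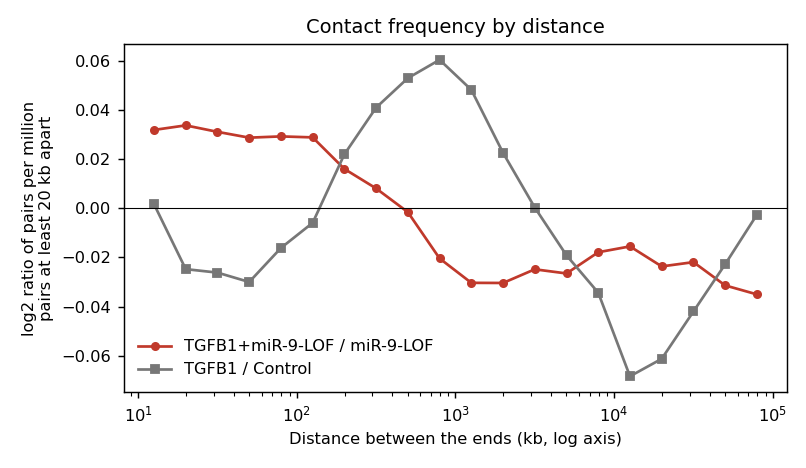
log2 ratio of pairs per 1000000 pairs at least 20 kb apart (vertical axis) against the distance between the ends (horizontal axis, kb, log scale). TGFB1+miR-9-LOF over miR-9-LOF (red) lies near 0.03 at short distances and below 0 at long ones, down to -0.04, and TGFB1 over Control (grey) has, within the distances plotted, which start at 10 kb, its peak of 0.06 at middle distances and its low of -0.07 at longer ones. Below 10 kb, not plotted, the ratios reached -0.06 (red) and 0.26 (grey) at the shortest distances.

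Hubs are the bins from which many contacts leave. With both libraries thinned to 7613761 pairs at least 20 kb apart, a bin of 10 kb was called a hub if it held an enriched region and had at least 10 interactions, each of at least 2 pairs with a Poisson p of at most 0.01 over the level expected from distance and coverage. There were 9506 bins with an enriched region, and their mean was 1.63 interactions in TGFB1+miR-9-LOF compared with 1.72 in miR-9-LOF. Among these bins TGFB1+miR-9-LOF had 38 hubs with 12.2 interactions each on average and miR-9-LOF 56 with 11.8. The log2 ratio of the numbers was -0.56 (-1.19 to 0.06), and its interval included 0. Over 10 other draws of the thinned pairs miR-9-LOF had 42 to 62 hubs. When thinning instead made the pairs that touch enriched regions equal in number, the order turned, with 38 hubs for TGFB1+miR-9-LOF compared with 30 for miR-9-LOF. Such pairs were 8.23% of pairs at least 20 kb apart in TGFB1+miR-9-LOF compared with 9.72% in miR-9-LOF. By the same limits TGFB1 had 80 hubs and Control 376, with 5895576 pairs at least 20 kb apart in TGFB1 and Control thinned to 7613761, so their depths differed. The libraries with the antagomiR had 14533 and 15412 interactions, of which 1282 were the same pair of bins, or 8.82% and 8.32% of each. These libraries shared 24 hubs, 63.2% of those of TGFB1+miR-9-LOF and 42.9% of those of miR-9-LOF. The 32 hubs called in miR-9-LOF alone had 2 to 9 interactions in TGFB1+miR-9-LOF with a median of 6. The 14 called in TGFB1+miR-9-LOF alone had 3 to 8 in miR-9-LOF with a median of 6.5. A bin that is not a hub has fewer than 10 by definition, so both ranges had to end below 10.

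The same bin led the hubs of either library. The bin of Pcdh7, a protocadherin, on chromosome 5 had 22 interactions in TGFB1+miR-9-LOF compared with 21 in miR-9-LOF. In miR-9-LOF it was followed by Tfap2a, a transcription factor, with 17 interactions against 13 in TGFB1+miR-9-LOF, by Plk2, a kinase, with 16 against 12, by Jun, the AP-1 subunit, with 16 against 10, and by Slit2, a guidance ligand, with 15 against 12. Myc, Plpp3 and Tent5a also had 15 in miR-9-LOF, against 11, 10 and 9. In TGFB1+miR-9-LOF it was followed by Inhba, the activin subunit and itself a ligand of the TGFB family, and by Adamts1, a secreted protease, with 18 interactions each against 12 each in miR-9-LOF, by Fat1, an atypical cadherin, with 17 against 12, and by Snai2, a transcription factor of mesenchymal cells, with 14 against 10. The bin of each of these 9 leading genes was a hub in both libraries, and also in TGFB1 and Control. Tent5a, which tied with Slit2 at 15, was not a hub in TGFB1+miR-9-LOF. Leaders were picked by their number in 1 library, which tends to widen such gaps, and the median interaction held 3 pairs in either library. Pcdh7 had 18 interactions in TGFB1 and 45 in Control, Tfap2a 21 and 36, and Inhba 18 and 39. Tgfb2 had 9 interactions in TGFB1+miR-9-LOF compared with 11 in miR-9-LOF.

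**Figure D5:**
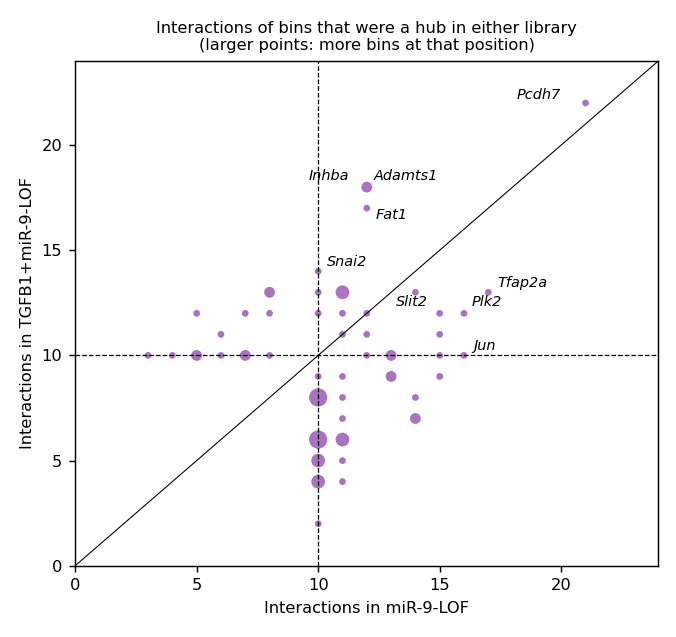
Interactions of each bin that was a hub in at least 1 library, with miR-9-LOF on the horizontal and TGFB1+miR-9-LOF on the vertical axis, both as numbers of interactions. Dashed lines mark the limit of 10, and 24 bins lie at or above both. Pcdh7 has the most interactions in each library, and the points for Inhba, Adamts1 and Fat1 lie above the line of equality and those for Jun, Plk2 and Tfap2a below it.

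Compartments, the A and B classes of active and inactive chromatin that plaid contact patterns show, were alike in the libraries compared. The sign of the first component differed in 381 of 9334 bins of 250 kb (4.08%, Wilson interval 3.70% to 4.50%), which was the lowest of the 6 pairs of libraries, and the components correlated at r = 0.98 over these bins. Control and TGFB1 differed in 613 bins (6.57%), among them 28.0% of the bins of chromosome 13, whose component followed gene density least in 3 of the 4 libraries. The bins that switched went both ways, 188 being A in TGFB1+miR-9-LOF and B in miR-9-LOF and 193 the reverse. In the bins that switched, the components of the libraries compared differed by 0.77 at most, where the median absolute component over all bins was 0.942. Some of the larger switches were picked after their values were seen. The bin with Rap2b, a small GTPase, on chromosome 3 (61250001 to 61500000, mm10) had components of -0.51 in TGFB1+miR-9-LOF compared with 0.09 in miR-9-LOF, and of -0.56 and -0.33 in TGFB1 and Control, so miR-9-LOF stood apart. The bin with Plxna4, a semaphorin receptor, on chromosome 6 (32500001 to 32750000) had -0.43 and 0.16. Plxna4 was at -0.14 in Control and 0.15 in TGFB1, so its sign also varied without the antagomiR. Compartment strength, the ratio of contacts within the 20% of bins at either extreme of the component to contacts between them, was 5.43 and 5.64 (log2 ratio -0.05), and 6.38 and 6.25 in TGFB1 and Control (log2 ratio 0.03). The extremes were those of TGFB1 and Control pooled, so the higher strength of these libraries may come in part from that choice. Ends were counted over 1 common set of 4488 A bins and 4846 B bins, and not over the classes of each library's own component. How far the choice of this set shaped the shares was not tested. Of all ends in these bins, 61.7% fell in A bins in TGFB1+miR-9-LOF compared with 60.4% in miR-9-LOF. In TGFB1 64.4% did and in Control 66.2%.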

How the data were processed

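Per the submitters' processing notes, reads were aligned to mm10 and filtered with HiC-Pro, whose version is not given in the sources used here. The authors deposited valid pairs, 1 per line, with the position, strand, MboI fragment and mapping quality score of each end. The deposited mapping quality score of both ends had to be at least 30, and only autosomes were used. The deposited files hold no other measurement, and ends and pairs were counted here from the positions, per 1000000 ends or pairs. Start sites were those of coding transcripts of GENCODE M21, and 1 per gene, the one with the most ends in Control and TGFB1, was analysed. Enriched regions were bins of 1 kb with at least 4 times the local level and a false discovery rate under 0.01 in Control and TGFB1 at equal depth. RefSeq gave the printed sequences.

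Each condition is 1 library, so promoters with at least 50 ends or pairs over both libraries were called at 1.5-fold relative to the median promoter. A two-sided exact binomial test with Benjamini-Hochberg adjustment over all promoters tested was run on the same values, and compares libraries. Intervals of ratios are exact and conditional on the sum, and those of shares are Wilson or delta-method intervals. Precision followed depth, with 10864558 to 15568047 valid pairs per library. Named were the 6 highest and 6 lowest promoters by ends (at least 100) and by contacts (at least 200), list members past 1.5-fold with 3 others of most ends per list, all genes the study named, and the 5 strongest hubs of each library. The genes, lists and measures were chosen with earlier results of these data known. Computations ran in Python 3.11.15 with numpy 2.4.6, scipy 1.17.1 and pandas 2.3.3 and were tested on simulated data. Thinning used a fixed seed. Alternatives varied windows, minimums, regions, distances, bins, thinning and mapping quality. Values of 2 genes that the naming rule or a list includes are not reported here.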

Additional observations from a re-analysis of the deposited data

Results flagged for a closer look

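Several values had opposite signs in the blocked cells and in those without the antagomiR. With 1 library per condition these differences between the comparisons were not tested. The log2 ratio of the share of pairs between chromosomes was 0.0791 for TGFB1+miR-9-LOF over miR-9-LOF and -0.176 for TGFB1 over Control. The decay exponent changed by -0.0173 and 0.0243. The log2 ratio of compartment strength was -0.0542 and 0.0282. That of the share of ends at promoters without an enriched region was 0.00812 and -0.0480, and that of pairs 20 to 100 kb apart 0.0300 and -0.0241. The share of ends in A bins differed by 1.31 and -1.71 percentage points.

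For named genes, the difference of the 2 log2 ratios, each relative to its median promoter, was set against its 95% counting interval, which compares libraries and not conditions. That interval excluded 0 for ends, with a difference above 0, at 483 of 8972 promoters (5.38%), and with one below 0 at 572 (6.38%). Genes chosen for their ratio in the blocked cells tend to stand out here. Values are given below only for named genes whose interval excluded 0. Among genes chosen for their ratio, the interval included 0 for ends at Dnajc27, with a difference of -0.73 (-1.49 to 0.04). For contacts it included 0 at Timp3, with 0.42 (-0.01 to 0.84), and at Acat2, Eps8, Mfsd9 and Dhx29. For ends the difference was -1.82 at Gm14403, -0.81 at Mindy3, -0.68 at Rfc4, -1.06 at Tomm5, -0.82 at Cant1, 1.65 at Gm10719, 0.91 at Smad2, 0.60 at Gm21738, 0.82 at Ccno, 0.90 at Bub1b and 0.77 at Commd2. Among the genes chosen for contacts it was -0.68 at Zfp180, -0.31 at Eif5b, 0.51 at Tex264, 0.57 at Mfsd9 and 0.69 at Src. Chosen for a list and its level alone were Fosb at -0.28 and Tarbp2 at -0.25. Of genes chosen in that way, the intervals for ends and contacts included 0 at Tgif1, Id1, Acvr1, Tgfb2, Smad1, Col5a1, Loxl1 and Col4a2, among others. Smad7, chosen after its values were seen, was at 0.55 for ends and 0.48 for contacts. For contacts its interval lay above 0 at 338 of 8970 promoters (3.77%) and below 0 at 351 (3.91%). The difference was -2.38 at Gm14403, 0.54 at Bub1b, -0.37 at Actn1, -0.64 at Zfp180, -0.41 at Eif5b, -0.52 at Klhl21, -0.56 at Phykpl, 0.52 at Tex264 and 0.58 at Src. It was 0.51 at Pmepa1, 0.38 at Setd1a and 0.53 at Tnks1bp1, which were not chosen for their ratio.

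Mitochondrial DNA was left out of all comparisons and was unequal between the libraries. TGFB1+miR-9-LOF had 2297 mitochondrial pairs per 1000000 valid pairs and miR-9-LOF 1037, against 345 in TGFB1 and 1668 in Control.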

How the results depend on the processing

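No paired analysis was possible because each condition is 1 library, and for the same reason no replicate could be left out. The shares, the decay exponent and compartment strength kept their direction under every alternative tried for them, and the number of hubs in 16 of 18. The mean number of interactions per hub kept its direction in 11 of 18, with log2 ratios from -0.12 to 0.07. The log2 ratio of the share of ends at start sites was -0.16 with a window of 1 kb, -0.061 with 5 kb, -0.15 at the 5′ ends of gene records, and -0.11 with no mapping quality minimum, with each pair of fragments counted once, and with the X chromosome. That of pairs between chromosomes was 0.074 without the minimum and 0.082 with the X chromosome. That of pairs over 2 Mb was -0.027 from 10 kb up, -0.020 from 50 kb up, -0.019 among pairs that touch an enriched region, and -0.028 without the minimum and with the X chromosome. The exponent differed by -0.0101 from 200 kb to 5 Mb, by -0.0211 for pairs outside enriched regions and by -0.0114 for pairs touching one.

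Promoters called higher in ends numbered 20 without centring on the median, 3 at a fold of 2, 59 by the exact binomial test, 33 with a window of 5 kb and 58 without the mapping quality minimum. Those called lower numbered 302 without centring, 1 at a fold of 2, 65 by the exact binomial test, 127 with a window of 1 kb and 6 with 5 kb. Promoters with more contacts numbered 24 without centring, 12 from 200 pairs up, 2 at a fold of 2, 5 by the exact binomial test, 231, 106 and 8 with anchors of 2, 5 and 25 kb, 165 for contacts of 20 to 200 kb, 186 for 200 kb to 2 Mb and 9 without the minimum. Those with fewer numbered 42, 4, 3, 5, 160, 60, 8, 90 and 142 in the same order up to 200 kb to 2 Mb. More promoters were thus lower than higher without centring and by the exact binomial test in ends, and in contacts without centring, at a fold of 2, and without the minimum (9 more and 13 fewer).

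The log2 ratio of the number of hubs was 0.34 where the pairs that touch enriched regions were equal in number. A Poisson p of at most 0.001 left 0 hubs for TGFB1+miR-9-LOF compared with 2 for miR-9-LOF, and asking for a region in both bins left 0 and 0, so neither gave a ratio. Compartment sign differed in 3.58% of bins of 500 kb. The log2 ratio of compartment strength was -0.061 in bins of 500 kb, -0.020 in bins of 100 kb, -0.032 for pairs outside enriched regions, -0.057 with equal pairs and -0.069 without the minimum. The cause of these shifts was not tested. Depth limits single promoters, as the median counting SE of a log2 ratio of ends was 0.155.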
